A study of Mus musculus with 12 samples.

Results

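The cytosolic ribosomal protein genes encode the proteins of the small and the large subunit of the ribosome that translates nuclear mRNAs. They were taken as the protein-coding rows of the count table whose symbols are Rpl or Rps with a number, Rpsa, Rplp0, Rplp1, Rplp2 or Fau, without the Rps6k kinases and at a mean of at least 10 CPM, the count scaled to a library total of 1000000. Of 54447 rows, 21969 were protein-coding, 83 symbols matched these names and 81 genes also passed the level minimum, 32 of the small and 49 of the large subunit. The 2 symbols under the minimum were Rpl10l, with 0 counts in all 12 libraries, which allows a level of at most 0.221 CPM in the shallowest of them, and Rpl3l, at a mean of 0.108 CPM. The lowest members were Rps10 at 15.8 CPM and Rpl24 at 45.6 CPM. The name pattern did not match Rpl36al, a cytosolic ribosomal protein gene that is counted further on in another list.

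The libraries came from mouse embryonic fibroblasts, the line NIH3T3 by the methods of the study. N-VEGF, the N-terminal part cleaved from a long form of vascular endothelial growth factor, or NLS-N-VEGF, the same protein behind the nuclear localization signal of Cas9, was carried by a lentiviral construct with a promoter induced by doxycycline (dox). Both proteins had a His tag, and the cells were populations selected with puromycin rather than single clones. The 4 groups were NLS-N-VEGF without and with dox and N-VEGF without and with dox. No group lacked a construct, so an effect of carrying it could not be measured. The labels of each group named libraries 1 and 2 with a first suffix, here 1a and 2a, and a library 2 with a second suffix, here 2b. What suffixes a and b stand for was not given in the sources used here. The questions were whether dox, the localization signal or the suffix moved the ribosomal protein genes, and how closely these genes moved together.

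A ribosome holds each of its proteins in fixed proportion, most of them as a single copy, and their genes are among the most strongly transcribed in growing cells. Most of their mRNAs start with a C followed by an unbroken run of pyrimidines, the terminal oligopyrimidine (TOP) motif, through which the kinase mTORC1 and the protein LARP1 set how well they are translated and how long they last. The promoters often hold sites for ETS family factors such as GABP. Free ribosomal proteins that find no ribosome to join are degraded, and Rpl5 and Rpl11 can bind MDM2 and stabilize p53.

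The annotated start sites of members with different behaviour are shown because the TOP motif is the feature that most members are known to share. Of the 81 genes, 61 were in the RefSeq promoter table for GRCm38.p6. Each line below gives 30 bases before the start and 20 from the start on, on the strand of the gene, with the unbroken run of C and T that holds the start base in capitals. Fau, Rpl15, Rpl35 and Rps27 were lower in libraries of suffix b and start within such a run.
Fau (chr19:6057917-6057966, plus strand): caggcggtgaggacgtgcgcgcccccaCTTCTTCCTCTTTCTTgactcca
Rpl15 (chr14:18270967-18271016, minus strand): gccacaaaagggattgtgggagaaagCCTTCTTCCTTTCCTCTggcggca
Rpl35 (chr2:39005112-39005161, minus strand): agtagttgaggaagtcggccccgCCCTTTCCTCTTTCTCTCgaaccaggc
Rps27 (chr3:90213629-90213678, minus strand): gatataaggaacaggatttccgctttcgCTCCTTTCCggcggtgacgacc
Rps6 was the most abundant member and Rps10 was among the few that were higher in suffix b, and both starts lie in a run as well.
Rps6 (chr4:86857348-86857397, minus strand): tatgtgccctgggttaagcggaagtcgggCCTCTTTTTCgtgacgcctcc
Rps10 (chr17:27635225-27635274, minus strand): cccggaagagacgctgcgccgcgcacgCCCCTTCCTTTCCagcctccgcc
For Rps3, Rpl12 and the paralogues Rpl22l1 and Rps27l the annotated start base was a G, so no capitals appear, although in Rpl12, Rpl22l1 and Rps27l a run of C and T of at least 5 bases begins 1 base further on.
Rps3 (chr7:99483690-99483739, minus strand): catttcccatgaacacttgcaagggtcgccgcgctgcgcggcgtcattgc
Rpl12 (chr2:32961682-32961731, plus strand): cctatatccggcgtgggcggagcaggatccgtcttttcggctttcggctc
Rpl22l1 (chr3:28805478-28805527, plus strand): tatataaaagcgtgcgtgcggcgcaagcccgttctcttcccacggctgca
Rps27l (chr9:66946056-66946105, plus strand): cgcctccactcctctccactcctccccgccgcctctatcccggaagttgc

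A start with C and 4 more pyrimidines was annotated for 13 of the 61 members (21.3%), against 350 of 16436 other protein-coding symbols (2.13%). It was found in 5 of 17 members that were lower in suffix b, in 7 of 42 that passed no threshold and in 1 of 2 that were higher. Annotated starts can lie a few bases from the true start, so these counts describe the annotation. CTCTTTC, searched on the gene's strand from 10 bases before the start to 50 after it, was in 11 of the 61 members and in 0.706% of the others. CCGGAAG, the core of ETS sites, searched on both strands over the whole window from 250 bases before the start to 50 after it, was in 25 members (41.0%) and in 13.2% of the others. AAGATGG, the core of YY1 sites, searched in the same way, was in 11 of 61 members and in 7.23% of the others. TATAA on the gene's strand between 50 and 10 bases before the start was in 8.20% of the members and 5.90% of the others.

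The 12 libraries held 13549331 to 18982127 counts and 920366 to 1391910 of them fell on the 81 genes. All 8 fibroblast markers checked were at 64.7 CPM or more in every library, while endothelial, leukocyte, epithelial and muscle markers reached at most 5.53 CPM. The row of the construct had 5 to 12 counts per library without dox. With dox it had 48, 35 and 173 counts in NLS-N-VEGF libraries 1a, 2a and 2b, and 121, 149 and 268 in those of N-VEGF. N-VEGF library 1a stood apart: it had the fewest genes detected (19976), the lowest share of counts from the mitochondrial genome (3.92%, against 4.56% to 6.17% in the other 11) and the highest share on ribosomal protein genes. The main values that use it are also given without it. Where nothing says that libraries came from separate cultures, the tests measure only the spread between these libraries.

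The members lay on 20 chromosomes, with Rpl10, Rpl36a, Rpl39 and Rps4x on X. Per kilobase of their shortest principal transcript their levels had a median of 1033 CPM and ranged from 31.8 CPM for Rps10 to 3414 CPM for Rps6, the target of the S6 kinases. Rps2 followed at 2536 and Rplp1 at 2457 CPM per kilobase. After Rps10, Rpl24 was the lowest at 67.4 and Rpl13a at 99.8 CPM per kilobase. These 3 genes share sequence with other annotated genes: 90.0%, 80.8% and 56.1% of the 80-base stretches of their transcripts also occur in another gene, with the read-through RPS10-NUDT3, Gm28037 and Gm45713 as the largest sharers. Exons of other genes on the same strand also covered 20.6%, 47.0% and 35.4% of their exon bases, against a median of 0% over members. The part of this overlap in their low levels was not tested. The share of 80-base stretches found in another gene was above 50% for 39 members, with a median of 49.1%, and reached 98.5% for Rps27, whose near copy is Rps27rt. Across the 81 genes the level per kilobase and the shared share had a Pearson r of -0.05, a description over genes counted in the same libraries. The 298 rows named as ribosomal protein pseudogenes took 0.0021% to 0.0030% of counts. How reads that match several places were counted was not given in the sources used here, so levels of members with near copies are uncertain.

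Between 6.63% and 8.34% of all counts fell on the 81 genes. In NLS-N-VEGF cells the share was 7.38%, 7.41% and 7.03% in libraries 1a, 2a and 2b without dox, and dox libraries had 7.22%, 6.79% and 6.63%. For N-VEGF it was 8.34%, 7.34% and 6.71% before induction, and the dox libraries had 7.34%, 7.23% and 7.13%. The group means were 7.27% ± 0.209, 6.88% ± 0.304, 7.46% ± 0.826 and 7.24% ± 0.105 (SD, n = 3 each), and the ranges of each pair compared here overlapped. Without N-VEGF library 1a the third of these means was 7.02%. Library 2b was the lowest of its group in all 4 groups. The 8 libraries of suffix a had 7.38% ± 0.435 (SD, n = 8) and the 4 of suffix b had 6.88% ± 0.246 (SD, n = 4), a difference of -0.507 percentage points against a spread of 0.455 within groups, and of -0.370 without N-VEGF library 1a. Small subunit genes took 2.83% to 3.67% and large subunit genes 3.80% to 4.68% of counts. The ratio of small to large subunit counts was 0.784 in N-VEGF library 1a and 0.745 to 0.757 in the other 11.

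**Figure D1:**
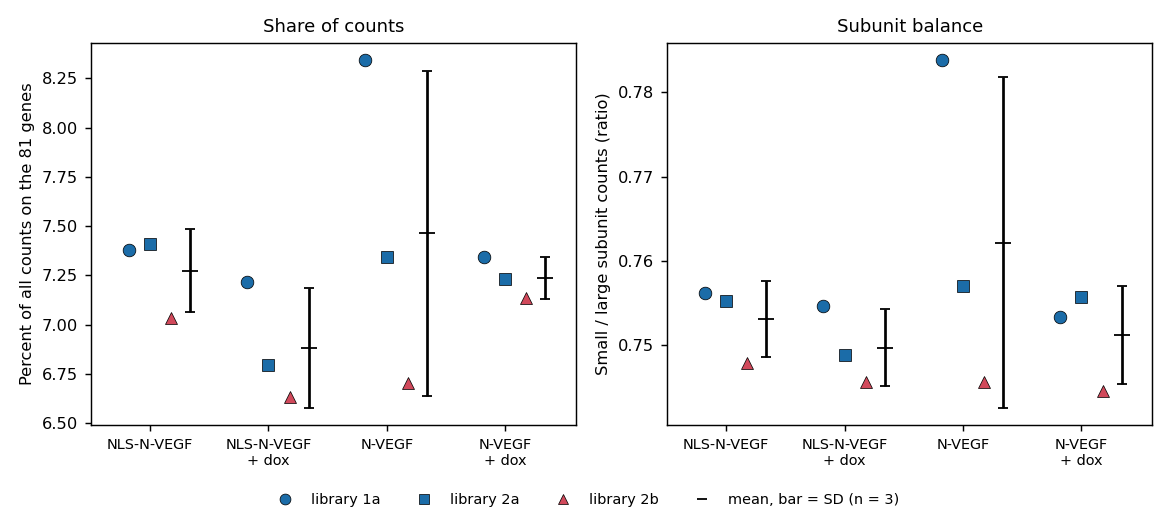
Percent of counts on the 81 genes (left) and ratio of small to large subunit counts (right) in each library, by group, with the mean and SD of the 3 libraries. Neither axis starts at 0. Library 2b is the lowest of each group in both panels, and N-VEGF library 1a is the highest of all at 8.34% and 0.784.

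Dox, in cells with NLS-N-VEGF, was followed by no call among the ribosomal protein genes. Of the 81 genes 79 had a log2 fold change below 0, with a median of -0.07 (SD over genes 0.04), against a median of 0.00 and an SD of 0.13 over 8918 genes at 10 CPM or more. In edgeR's quasi-likelihood test, adjusted over 13608 genes, 3 genes in all passed (0.022%) and no member did, nor did any member reach an unadjusted p of 0.05, with edgeR or with DESeq2. The size rested on single libraries: without NLS-N-VEGF dox library 2b the median was -0.03 with 64 genes below 0, and without NLS-N-VEGF dox library 1a it was -0.13 with 80 below 0. Between libraries of the same label it was -0.0036 for 1a, -0.12 for 2a and -0.11 for 2b. Small subunit genes had a median of -0.09 and large subunit genes of -0.07. The median SE of a member was 0.11. In bulk RNA, fewer cells with a transcript and less of it per cell cannot be told apart, and CPM values are relative to the rest of the RNA.

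The smallest p-values were those of Rpl26, a protein at the exit of the peptide tunnel, and Rps23, a protein of the decoding centre. Rpl26 had 848, 857 and 816 CPM in libraries 1a, 2a and 2b before dox, and the dox libraries had 835, 770 and 716 CPM. The log2 fold change was -0.12 ± 0.08 (SE, edgeR's unadjusted p = 0.152), and the groups overlapped. For Rps23 the uninduced libraries had 417, 424 and 389 CPM and the dox libraries 408, 380 and 358 CPM, with a log2 fold change of -0.10 ± 0.08 (edgeR's unadjusted p = 0.218). For both genes each library with dox was below the library of the same label without it.

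In N-VEGF cells, dox again gave no call among members, and the direction depended on a single library. Of the 81 genes 60 were below 0, with a median log2 fold change of -0.05 (SD 0.10). Without N-VEGF library 1a the median was 0.05 and 77 were above 0, and without N-VEGF library 2b it was -0.14 with 64 below 0. In edgeR's test 5 of 13608 genes passed (0.0367%), no member did and no member had an unadjusted p under 0.05, with edgeR or DESeq2. The smallest p-values belonged to Rpl23, a large subunit protein that can bind MDM2, and Rps24, a small subunit protein mutated in some cases of Diamond-Blackfan anaemia. For Rpl23 the uninduced libraries had 871, 1050 and 1152 CPM and the dox libraries 1127, 1122 and 1202 CPM, with a log2 difference of 0.17 ± 0.10 (SE, edgeR's unadjusted p = 0.13). For Rps24 these values were 627, 843 and 918 CPM against 884, 901 and 944 CPM, with a log2 difference of 0.19 ± 0.12 (SE, edgeR's unadjusted p = 0.13). In both genes N-VEGF library 1a was the lowest of the 6, and without it the log2 fold changes were 0.06 and 0.05.

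The difference of the dox effects, NLS-N-VEGF minus N-VEGF, was tested as an interaction and shares its libraries with both comparisons above. The member median was -0.01, with 45 of 81 genes below 0. No gene of 13608 passed in edgeR (0%), and no member had an unadjusted p under 0.05 with edgeR or DESeq2. Without N-VEGF library 1a the median was -0.13, with 79 genes below 0 and again no call, and without N-VEGF library 2b it was 0.07 with 55 genes above 0. Rps23 was among the members with the smallest p-values, with -0.19 ± 0.11 on the log2 scale (SE, edgeR's unadjusted p = 0.105), and its CPM values with dox are set side by side in the next comparison.

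With dox, all 81 genes were lower where N-VEGF carried the localization signal, none of them past the threshold. This comparison shares its NLS-N-VEGF dox libraries with that of dox in NLS-N-VEGF cells, so they are not independent results. The median log2 fold change was -0.08 with an SD over genes of 0.03, against -0.01 and 0.10 over genes at 10 CPM or more. The member median itself varied by an SD of 0.07 between libraries of a group, and by 0.06 once the suffix difference was removed. Between libraries of the same label the median was -0.0086 for 1a, with 48 genes lower, -0.09 for 2a, with 75 lower, and -0.15 for 2b, with 81 lower. The share of counts was also lower with the signal in each of these 3 pairs. So were the counts on the row of the construct, and the part of construct level was not tested. With only 3 pairs of libraries, a two-sided exact test of the median could not reach 0.05, and none was made. Without NLS-N-VEGF dox library 2b it was -0.04 with 64 genes lower, and without NLS-N-VEGF dox library 1a it was -0.13 with 80 lower. No gene of 13608 passed (0%), and no member had an unadjusted p under 0.05 with edgeR or DESeq2. The smallest p-values were those of Rpl17, a large subunit protein near the tunnel exit, and of Rps23. Rpl17 was measured at 902, 820 and 774 CPM with the signal and at 1012, 1025 and 856 CPM without it, with a log2 difference of -0.21 ± 0.10 (SE, edgeR's unadjusted p = 0.0608). Rps23 had 408, 380 and 358 CPM against 431, 424 and 405 CPM, with a log2 difference of -0.14 ± 0.08 (SE, edgeR's unadjusted p = 0.106).

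Without dox, 61 of 81 genes were lower where the localization signal was present, with a median of -0.07 (SD 0.09). This direction also rested on N-VEGF library 1a, without which the median was 0.04 and 75 genes were above 0. Without N-VEGF library 2b it was -0.15 with 65 genes below 0. No gene passed in edgeR (0%), and no member had an unadjusted p under 0.05 with edgeR or DESeq2. Rps24 was at 878, 889 and 950 CPM with the signal, against the N-VEGF values given above, and a log2 difference of 0.19 ± 0.12 (SE, edgeR's unadjusted p = 0.143). Rpl10, which joins the large subunit late in its assembly, had 456, 456 and 485 CPM against 569, 462 and 493 CPM, with a log2 difference of -0.12 ± 0.08 (SE, edgeR's unadjusted p = 0.161). N-VEGF library 1a was the lowest of the 6 for Rps24 and the highest for Rpl10, and without it the log2 differences were 0.04 and -0.04.

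**Figure D2:**
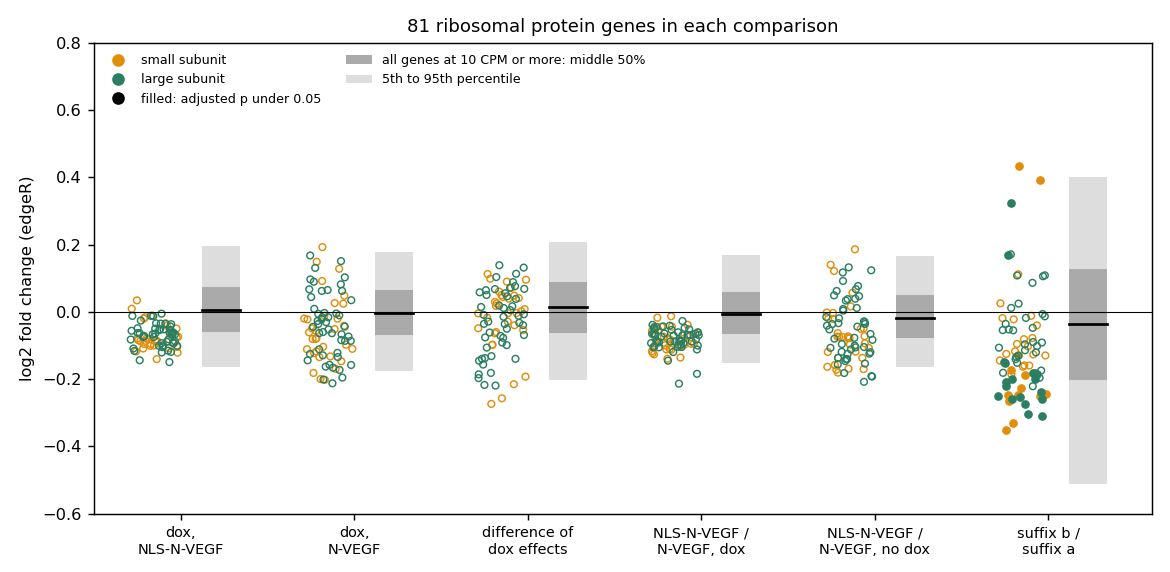
Log2 fold changes of the 81 genes (points, small and large subunit in colours, filled where the adjusted p was under 0.05) in the 5 group comparisons and between label suffixes, beside the middle 50% (dark grey, line at the median) and the 5th to 95th percentile (light grey) of all genes at 10 CPM or more. The points lie in a narrow band just below 0 for dox in NLS-N-VEGF cells and for NLS-N-VEGF against N-VEGF with dox, which share the NLS-N-VEGF dox libraries. Only the suffix comparison has filled points.

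Between the suffixes, 32 of the 81 genes differed, 28 of them lower and 4 higher in the 4 libraries of suffix b. This is 39.5% of the members, against 45.6% of all 13608 genes tested, a share no higher than that of all genes. In the lower direction it was 34.6% against 23.5%, and in the higher direction 4.94% against 22.2%. Among the 8918 genes at 10 CPM or more 29.5% were lower and 19.8% higher. The member median was -0.13 with an SD of 0.15, against -0.04 and 0.30 over those genes, and 68 of 81 genes were below 0. The median was -0.13 in the small subunit, with 11 genes lower and 2 higher of 32, and -0.13 in the large subunit, with 17 lower and 2 higher of 49. Within groups the member median of 2b against 1a and 2a was -0.09 and -0.14 in NLS-N-VEGF cells without and with dox, and -0.20 and -0.06 in N-VEGF cells. Of the 81 genes 51 were lower in 2b in all 4 groups and 4 in none. Ranges of the 8 and the 4 libraries did not overlap for 21 members (25.9%), against 28% of all genes tested. Leaving out N-VEGF library 1a gave 52 member calls, 45 of them lower, where 51.6% of all genes passed and 26.6% were lower. Leaving out N-VEGF library 2b gave 17, 14 of them lower, where 37.8% of all genes passed and 20.2% were lower.

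Among small subunit genes, Rps3 and Rps20 had some of the larger decreases. Rps3 (chr7:99477896-99483738 on GRCm38), which lines the mRNA entry, ranged from 1246 to 1918 CPM with a median of 1378 in the 8 libraries of suffix a, and had 1143, 1063, 1119 and 1179 CPM in the 2b libraries of NLS-N-VEGF without and with dox and N-VEGF without and with dox. All 4 values were below the lowest of the other 8, and the log2 fold change was -0.33 ± 0.08 (SE, edgeR's adjusted p = 0.00325). Rps3 shares no 80-base stretch with another annotated gene. Rps20 (chr4:3831334-3835665), a protein of the head of the subunit, went from a median of 1034 CPM (range 936 to 1191) to 894, 840, 832 and 906 CPM, again without overlap, with a log2 difference of -0.26 ± 0.06 (SE, edgeR's adjusted p = 0.00177).

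The members made as fusions with ubiquitin or a ubiquitin-like protein differed in their calls. Fau (chr19:6057888-6059524), which encodes a ubiquitin-like protein joined to a small subunit protein, had a median of 734 CPM (range 686 to 909) in suffix a and 649, 644, 602 and 673 CPM in the 2b libraries. These ranges did not overlap, with a log2 difference of -0.23 ± 0.07 (SE, edgeR's adjusted p = 0.0125). Without N-VEGF library 2b it was -0.15 and did not pass (adjusted p = 0.0929 in edgeR). Rps27a (chr11:29545846-29548109), ubiquitin joined to a small subunit protein, had a median of 1127 CPM (1050 to 1347) and 1094, 986, 1083 and 1113 CPM, with overlap and a log2 difference of -0.10 ± 0.06 (SE, edgeR's adjusted p = 0.209).

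Rps6, Rpsa and Rps4x passed no threshold between suffixes. Rps6 (chr4:86854660-86857412) had a median of 3091 CPM (2800 to 3469) in suffix a and 2870, 2616, 2856 and 2982 CPM in the 2b libraries, with a log2 difference of -0.13 ± 0.06 (SE, edgeR's adjusted p = 0.106). Rpsa, also known as the laminin receptor, had -0.16 ± 0.08 (adjusted p = 0.124 in edgeR) and the X-linked Rps4x had -0.13 ± 0.06 (adjusted p = 0.122 in edgeR). The ranges of all 3 overlapped between suffixes.

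Of the 2 small subunit genes that were higher, Rps27l is described with its parent gene further on. The other, Rps10 (chr17:27630418-27636669), whose protein is marked by ubiquitin on collided ribosomes, had 12.4 to 16.5 CPM with a median of 14.3 in suffix a and 17.2, 17.5, 19.1 and 21.2 CPM in the 2b libraries. The ranges did not overlap, with a log2 difference of 0.39 ± 0.08 (SE, edgeR's adjusted p = 0.000931). It was the least abundant member, and the sharing of its sequence and the exon overlap given above apply to this value.

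In the large subunit, the largest decreases were those of Rpl18, Rpl36 and Rpl12. Rpl18 (chr7:45715457-45720836) had a median of 1107 CPM (1015 to 1555) in suffix a and 926, 905, 890 and 964 CPM in the 2b libraries, with a log2 difference of -0.31 ± 0.08 (SE, edgeR's adjusted p = 0.00657). Rpl36 (chr17:56613416-56614243) had a median of 371 CPM (331 to 477) and then 322, 295, 286 and 314 CPM, with -0.30 ± 0.07 on the log2 scale (SE, edgeR's adjusted p = 0.00316). Rpl12 (chr2:32961559-32965345), a protein at the base of the stalk, had a median of 1448 CPM (1387 to 1763) and then 1213, 1164, 1178 and 1320 CPM, with -0.27 ± 0.07 (SE, edgeR's adjusted p = 0.00321). None of these 3 overlapped between suffixes. Without N-VEGF library 2b, Rpl18 had -0.22 and just missed the threshold (adjusted p = 0.0507 in edgeR).

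The stalk that recruits translation factors to the large subunit is built from Rplp0, Rplp1 and Rplp2. Rplp1 (chr9:61913284-61914542) had a median of 1249 CPM (1174 to 1700) in suffix a and 1077, 1051, 1041 and 1170 CPM in the 2b libraries. The ranges were just apart, and the log2 fold change was -0.25 ± 0.08 (SE, edgeR's adjusted p = 0.014). Without N-VEGF library 2b it was -0.17 and did not pass (adjusted p = 0.103 in edgeR). Rplp0 (chr5:115559467-115563727), which anchors the stalk, had a median of 3015 CPM (2580 to 4423) and then 2741, 2580, 2603 and 2751 CPM, with overlap and -0.22 ± 0.09 on the log2 scale (SE, edgeR's adjusted p = 0.0602). Rplp2 (chr7:141447370-141451585) had a median of 451 CPM (416 to 641) and then 444, 420, 419 and 469 CPM, with -0.10 ± 0.08 (SE, edgeR's adjusted p = 0.366). In all 3 genes the highest of the 12 values was that of N-VEGF library 1a.

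Rpl5 and Rpl11, which enter the ribosome together with the 5S RNA, did not pass. Rpl5 (chr5:107900502-107909005) had 1208 to 1322 CPM in suffix a and 1245, 1132, 1224 and 1253 CPM in the 2b libraries, with a log2 difference of -0.05 ± 0.05 (SE, edgeR's adjusted p = 0.446). Rpl11 (chr4:136028265-136053428) had 438 to 589 CPM and then 458, 423, 450 and 470 CPM, with -0.13 ± 0.06 (SE, edgeR's adjusted p = 0.0975). Rpl10 had a log2 difference of 0.01 ± 0.06 (SE, edgeR's adjusted p = 0.884).

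The 2 large subunit genes that were higher in suffix b were Rpl7 and Rpl30. Rpl7 (chr1:16101295-16104662) ranged from 1674 to 2170 CPM with a median of 2113 in suffix a and had 2619, 2352, 2641 and 2666 CPM in the 2b libraries. All 4 lay above the other 8, and the log2 fold change was 0.32 ± 0.07 (SE, edgeR's adjusted p = 0.00104). Rpl30 (chr15:34440505-34443640) ranged from 431 to 577 CPM and had 607, 544, 617 and 627 CPM, with overlap and 0.17 ± 0.07 on the log2 scale (SE, edgeR's adjusted p = 0.0474). The call on Rpl30 was lost in 11 of 20 alternative settings, with adjusted p from 0.0134 to 0.295. In both genes N-VEGF library 1a was the lowest of the 12.

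**Figure D3:**
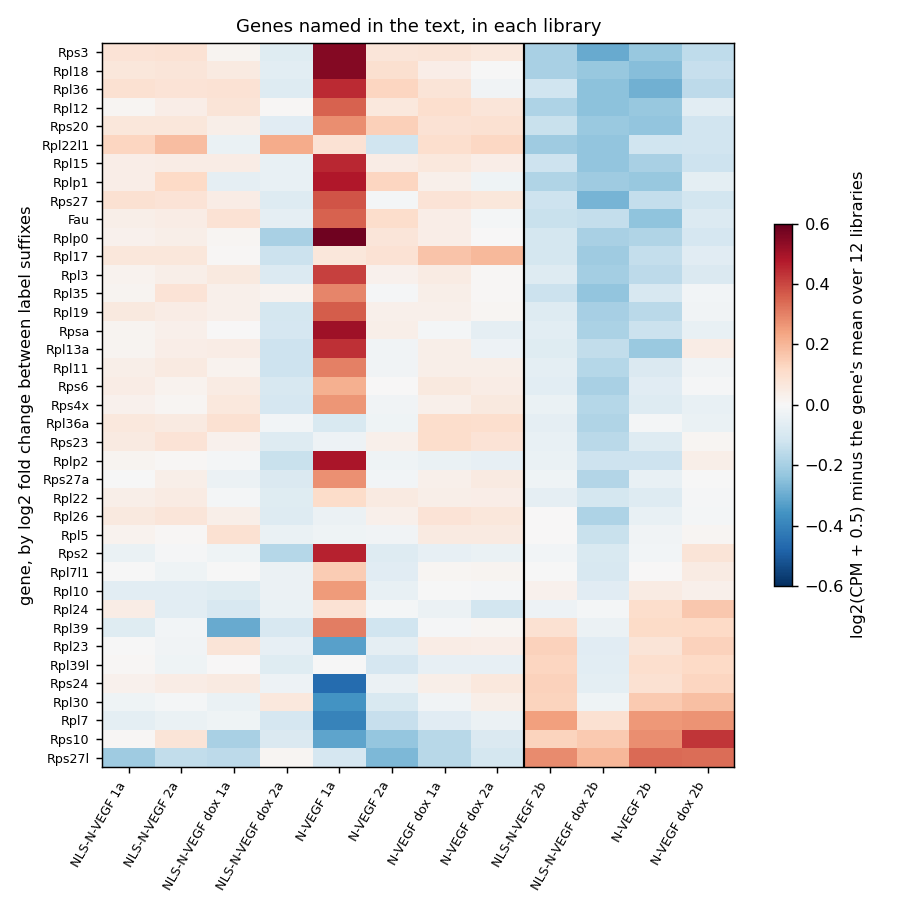
Log2(CPM + 0.5) of the 39 members named in the text (rows, in the order of the log2 fold change between suffixes) in each library (columns, suffix a left of the line and suffix b right of it) as the difference from the gene's mean over 12 libraries. The 4 columns on the right are mostly blue, with Rpl7, Rps10 and Rps27l red in all 4, and the column of N-VEGF library 1a is the darkest, red for most genes and clearly blue for Rps24, Rpl7, Rpl30, Rpl23 and Rps10.

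Genes with a paralogue in the set were compared with their parent genes. Rps27l (chr9:66946086-66949516), a target of p53 that can replace Rps27, had 128, 134, 133, 150, 139, 123, 133 and 138 CPM in the 8 libraries of suffix a, in the order of groups used above, and 182, 171, 189 and 188 CPM in the 2b libraries. The lowest of these 4 was above the highest of the 8, and the log2 difference of 0.43 ± 0.06 (SE, edgeR's adjusted p = 1.72e-05) was the largest of all members. Rps27 (chr3:90212522-90213651) had a median of 262 CPM (236 to 324) and then 228, 205, 226 and 230 CPM. It was lower without overlap, with -0.25 ± 0.06 on the log2 scale (SE, edgeR's adjusted p = 0.00513). The 2 genes thus lay on opposite sides of 0, both past the threshold in all 20 alternative settings, though Rps27 shares 98.5% of its 80-base stretches with other genes and Rps27l 9.76%.

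The other pairs showed no such opposition. Rpl22l1 (chr3:28805436-28807424) had a median of 89.6 CPM (76.2 to 96.7) in suffix a and 71.3, 70.3, 76.2 and 76.6 CPM in the 2b libraries, with -0.26 ± 0.06 on the log2 scale (SE, edgeR's adjusted p = 0.00349). Rpl22 (chr4:152325742-152334071) had a median of 403 CPM (374 to 423) and then 378, 364, 372 and 391 CPM, with -0.09 ± 0.05 (SE, edgeR's adjusted p = 0.127). Rpl39l (chr16:10170226-10174911), best known from the testis, had 131 to 141 CPM and then 154, 135, 151 and 153 CPM, with 0.11 ± 0.05 (SE, edgeR's adjusted p = 0.0859). Its parent Rpl39 had 428 to 653 CPM and then 563, 515, 571 and 574 CPM, with 0.11 ± 0.07 (SE, edgeR's adjusted p = 0.231). Rpl7l1 had 152 to 177 CPM and then 159, 149, 159 and 165 CPM, with -0.02 ± 0.05 (SE, edgeR's adjusted p = 0.793), beside the 0.32 of Rpl7 given above.

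**Figure D4:**
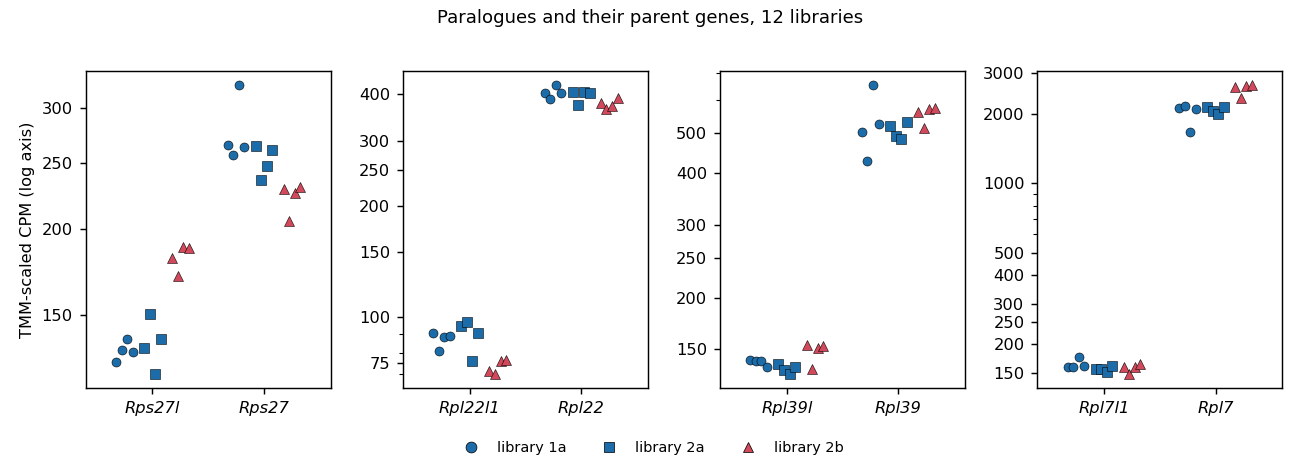
TMM-scaled CPM (log axis) of 4 paralogues and their parent genes in the 12 libraries, suffix a in blue and suffix b in red. The red points of Rps27l lie above all of its blue points and those of Rps27 below, while those of Rpl22l1 lie at the lower end of its blue points.

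Most of the 81 genes moved together across libraries. Over deviations of log2(CPM + 0.5) from the group means in 12 libraries, pairs of members had a mean Pearson r of 0.43 and a median of 0.64, and 78.6% of 3240 pairs were above 0. Pairs of the 8837 other genes at 10 CPM or more had a mean of 0.01 and a median of 0.02. The mean was 0.47 within the small and 0.40 within the large subunit. With the suffix difference also removed the member mean was 0.42, without N-VEGF library 1a it was 0.36, and with both steps 0.42. The first principal component of the members held 67.6% of their variance, against 48.9% for the other genes. This share also counts genes that run in opposite directions, and it includes N-VEGF library 1a. The lists of other TOP mRNAs and of ribosome biogenesis genes described further on both had 59.3%, at a mean r of 0.07 and 0.37. These correlations are descriptions over libraries that share depth and scaling, and between 12 libraries of 4 groups.

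**Figure D5:**
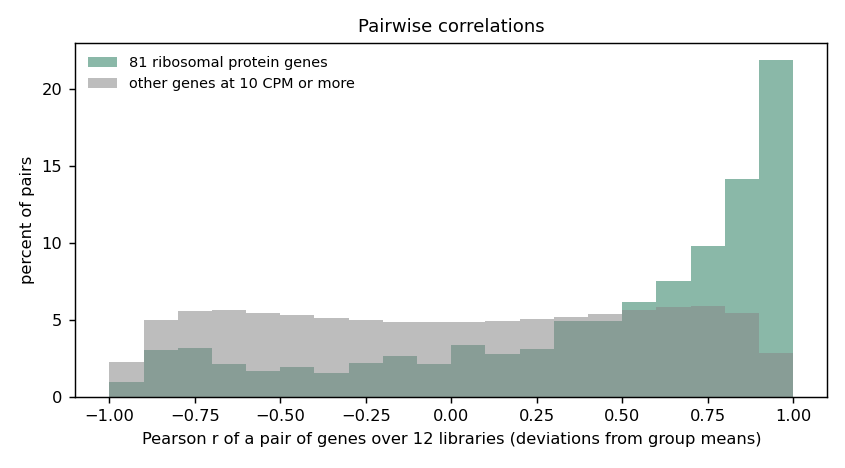
Percent of gene pairs by Pearson r over 12 libraries for the 81 ribosomal protein genes and for other genes at 10 CPM or more, in bins of 0.1. Member pairs pile up towards r = 1, with 59.5% above 0.5 against 25.6% of the other pairs, and a smaller share of member pairs lies below 0.

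Individual members followed the rest to different degrees. The Pearson r of a gene's deviations with the mean of the other 80 had a median of 0.87, was above 0.9 for 36 genes and below 0 for 10. Rpl19, Rpl11 and Rpl3 were the closest, each at 0.99. Rpl30 at -0.84, Rpl7 at -0.81 and Rps24 at -0.79 ran the other way. Rpl30, Rpl7 and Rps24 had their lowest value in N-VEGF library 1a, and Rpl19, Rpl11 and Rpl3 had their highest value there. The r of single genes, high or low, was not computed without that library. In N-VEGF library 1a, 66 members were above the mean of the other 7 libraries of suffix a, by a median of 0.27 on the log2 scale, from 0.58 for Rplp0 down to -0.48 for Rps24. Over members this difference had a Pearson r of 0.51 with the GC content of the transcript and of -0.01 with its log2 length, and over 8711 other genes the r with GC content was 0.53. For dox in N-VEGF cells the member log2 fold changes had an r with GC content of -0.55, and of -0.19 without this library. For NLS-N-VEGF against N-VEGF without dox the r was -0.48, and 0.13 without it. For the difference between both dox effects it was 0.49, and 0.01 without it. In the comparisons that do not use the library, the r was -0.17 for dox in NLS-N-VEGF cells and 0.15 for NLS-N-VEGF against N-VEGF with dox. Over the other genes the r was between -0.32 and -0.25 in all 4 comparisons of group pairs, 2 of which use this library, and without it these 2 had 0.14 for dox in N-VEGF cells and 0.19 without dox. For the difference between both dox effects the r over the other genes was 0.01, and -0.34 without this library. Whether base composition had a part in these values was not tested.

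Transcript length and GC content were also set beside the suffix difference. Members were short, with a median of 680 bases against 3008 for the other genes at 10 CPM or more, at a median GC content of 51.8% against 50.2%. Over 8711 other genes the log2 fold change between suffixes had an r of -0.32 with log2 length, so shorter transcripts tended to be higher in suffix b. Over members it was -0.04 with length and -0.26 with GC content. The part of length in the member shift was not tested.

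Other genes of ribosome synthesis were counted between suffixes in the same way, to be read beside the 22.2% of all genes tested that were higher and the 23.5% that were lower, with a median of 0.01. Of 57 ribosome biogenesis genes, 32 were higher and 3 lower in suffix b, with a median of 0.19. The nucleolar GTPase gene Gnl3 had 0.53 ± 0.10 (SE, edgeR's adjusted p = 0.00029), Nop14 of the small subunit processome 0.47 ± 0.05 (adjusted p = 5.1e-06 in edgeR) and Gar1 of the box H/ACA particles 0.43 ± 0.06 (adjusted p = 5.9e-05 in edgeR). Mdn1, a large ATPase of large subunit maturation, was lower, with -0.48 ± 0.07 (SE, edgeR's adjusted p = 4.3e-05), as were Efl1 at -0.17 and Utp20 at -0.16. Of 15 RNA polymerase I genes tested 3 were higher, Taf1d, Taf1a and Cd3eap, at 0.86, 0.65 and 0.29, and Polr1c was lower at -0.25. Of 77 mitochondrial ribosomal protein genes 15 were higher and 4 lower, with a median of 0.04, among them Mrpl24 at 0.74 and Mrpl2 at -0.30.

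Other mRNAs with a TOP motif were divided. Of 27 such genes 11 were higher and 6 lower (63.0% called, against 45.6% of all genes tested), with a median of 0.07 and an SD of 0.30. Among the higher ones was Rpl36al, the ribosomal protein gene that the name pattern left out of the members. It had means of 14.1 CPM in suffix a and 16.8 CPM in suffix b, with 0.25 ± 0.08 (SE, edgeR's adjusted p = 0.0241). The translation factor genes Eif4b, Eef2 and Eif3h were lower, at -0.49, -0.45 and -0.36, while the snoRNA host genes Snhg1 and Gas5 were higher, at 0.68 and 0.60. Of 33 regulators of TOP mRNAs and ribosome synthesis 18 were lower and 2 higher (60.6% called, against the same 45.6%). Ddit4, an inhibitor of mTORC1 that responds to hypoxia and stress, had -1.09 ± 0.07 (SE, edgeR's adjusted p = 3.7e-08). The MYC antagonist Mxi1 had -0.65 and Deptor, a further mTOR inhibitor, -0.57, while Rps6kb2 and Rheb were higher at 0.44 and 0.23. Rptor and Mtor, which encode subunits of mTORC1 itself, and Myc were also lower, at -0.44, -0.26 and -0.33, and are named here after their values were seen. In the 5 comparisons between groups no gene of these 5 lists passed the threshold. The mean pairwise r over 12 libraries, as computed for the members, was 0.37 in the ribosome biogenesis list, 0.20 in the mitochondrial ribosomal proteins, 0.18 in the regulators, 0.07 in the other TOP mRNAs and -0.03 in the RNA polymerase I genes. Without N-VEGF library 1a these were 0.45, 0.20, 0.17, 0.10 and -0.03, beside 0.36 for the members. With the suffix difference also removed they were 0.44, 0.24, -0.01, 0.31 and 0.07, beside 0.42 for the members. In both of these settings the ribosome biogenesis list was above the members.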

How the data were processed

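RNA sequencing had been done on 12 libraries, 3 in each of 4 groups, from TruSeq RNA v2 kits. The authors trimmed reads (Trim Galore with cutadapt 1.10), aligned them to GRCm38 (TopHat2 2.1.0 with Bowtie2 2.2.6) and deposited raw counts per gene (HTSeq 0.6.1). Strand and multi-mapping options were not given in the sources used here.

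Members and gene lists were chosen with earlier results of these data known. Counts of 13608 genes kept by filterByExpr were tested with edgeR 4.0.16 (quasi-likelihood, TMM scaling, 1 mean per group, and group plus suffix for the suffix comparison) in R 4.3.3, with Benjamini-Hochberg adjustment over all genes and a threshold of 0.05. Printed CPM values are TMM-scaled unless given as means that chose members, and levels per kilobase use unscaled CPM. The script was tested on simulated data. Alternatives were DESeq2 1.42.0, other scalings and filters, single libraries left out, suffix a alone and the replicate label as a block. Same-label differences, and shares and GC correlations without N-VEGF library 1a, were added after seeing the data. Transcripts came from GENCODE M21. Start sites were those of each symbol's first entry in the RefSeq promoter table.

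Named were 11 genes of fixed roles, paralogues with their parents, the 6 largest called changes each way between suffixes, the 2 smallest p-values in other comparisons, the 3 extremes of r and of level, and up to 3 called genes each way per list. Some genes that this rule names are not reported here.

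Same-label libraries of different groups deviated together, with r from 0.35 to 0.80 in 18 of 18 pairs over 12057 genes. Within suffix a alone, same-numbered libraries had a mean r of 0.05, so the pairing follows the suffix.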

Additional observations from a re-analysis of the deposited data

Results flagged for a closer look

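N-VEGF library 1a lay far from the other 7 libraries of suffix a in the share of counts on ribosomal protein genes, at 8.34%, with a gap to the nearest library of 0.601 of the whole range (Dixon's critical value for 8 libraries is 0.526). The same library stood apart in the ratio of small to large subunit counts, at 0.784, with a gap of 0.768. These 8 libraries come from 4 groups and were compared because the suffix divided the libraries more than the groups did. Chance gives about 1 such case in 20 sets, and 4 sets were looked at. Among single members, N-VEGF library 1a was as far out for 50 of the 81 genes, 46 of them as the highest and 4 as the lowest value. That is 61.7% of the members, against 19.8% of 8837 other genes at 10 CPM or more, over which this library also had the widest deviations (SD 0.29 on the log2 scale, against 0.13 to 0.27 in the other libraries). NLS-N-VEGF dox library 2b was the lowest of the 4 libraries of suffix b in this way for 4 of the 81 genes. The share over other genes is not given for it. With about 1 in 20 arising by chance, this count is not read as a trait of the members.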

How the results depend on the processing

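No member passed in any comparison between groups under any of the 20 alternatives run for each. Member medians in the fit with a replicate block (the number and suffix together) were -0.08, -0.05, -0.02, -0.08 and -0.06 (log2) for dox in NLS-N-VEGF cells, dox in N-VEGF cells, their difference, and NLS-N-VEGF against N-VEGF with and without dox. The block changed no call on a member. Suffix a alone gave a median of -0.13 for dox in N-VEGF cells and 0.065 for the difference, and keeping every gene with at least 1 count gave 0.014 for the difference. With single libraries left out, the median ran from -0.13 to -0.030 for dox in NLS-N-VEGF cells, from -0.13 to -0.044 for NLS-N-VEGF against N-VEGF with dox, from -0.14 to 0.052 for dox in N-VEGF cells, from -0.13 to 0.068 for the difference and from -0.15 to 0.040 for NLS-N-VEGF against N-VEGF without dox. The cause of these moves was not tested. Between suffixes the member calls were 17 to 52 with single libraries left out, and 49 with the filter of at least 1 count. The member median stayed between -0.16 and -0.09 under all 20 alternatives, the difference in the share of counts between -0.593 and -0.370 percentage points and the mean pairwise r between 0.36 and 0.46. Of the named members called between suffixes, Rpl3 lost its call in 10 of 20 alternatives. The main fits between groups had no suffix term, so the suffix difference is part of their median SE of 0.11. With that SE and 3 libraries a group, member changes of the size of the medians printed here could not be detected gene by gene. The SE of the fit with a replicate block is not given here.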
